A study of Mus musculus with 6 samples.

Results

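The antioxidant programme described here comprised 36 genes, taken by name from the deposited gene table, of 27240 genes listed in all. They cover NRF2 and its regulators, glutathione synthesis and use, the thioredoxin and peroxiredoxin systems, NADPH supply and a few further detoxifying enzymes. Poly(A) RNA was sequenced from 6 samples of primary macrophages of the mouse peritoneum, phagocytes of the abdominal cavity. The knockout group (3 libraries) and the wild-type group (3 libraries) were both given oxLDL, oxidised low-density lipoprotein, which macrophages take up through scavenger receptors. The genotype labels read KO and WT, and the series title names the kinase DCLK1. The sources used here give neither the allele, nor the cells in which it was deleted, nor the age and sex of the mice, nor the dose and time of oxLDL. No library without oxLDL was analysed here, so every level below is a level after oxLDL. Separate animals or cultures are not named for the replicates, so every p-value rests on the spread among these 6 libraries alone, which may be technical.

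NRF2, encoded by Nfe2l2, is a transcription factor that KEAP1 binds in the cytoplasm and hands to the CUL3 ubiquitin ligase for degradation. Oxidants and electrophiles, oxidised lipids among them, modify cysteines of KEAP1, and NRF2 then accumulates and enters the nucleus. There it pairs with small MAF proteins on antioxidant response elements, sites that the repressor BACH1 can also occupy. Its targets make glutathione, regenerate reduced thioredoxin and supply the NADPH that both systems consume. In macrophages this programme meets the oxidants made by the phagocyte NADPH oxidase and those carried in by oxidised lipoproteins.

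The response element is shown here because NRF2 acts through it, although the 36 genes were taken by name and not by this sequence. The letters TGACNNNGC were sought on both strands of RefSeq promoter windows (GRCm38.p6) that run from 250 bases before to 50 bases after an annotated transcript start. A gene can have several starts, as 7 members did, and the Txnrd1 match below lies before a start inside the gene. The matches of Mgst1, Srxn1, G6pdx, Pgd and Me1 and the plus-strand match of Ugdh also lie within the gene as deposited. A window was held for 33 of the 36 genes, all but Gclc, Gsr and Prdx6. The letters were found for 12 of the 33 genes (36.4%), against 14.0% of all 27025 gene symbols with a window. By window, 12 of 43 member windows (27.9%) and 12.4% of all 32851 windows held them. Each match is printed 5′ to 3′ on the strand that reads TGACNNNGC, with the match in capitals and 10 bases on each side in lower case.
Nfe2l2 (chr2:75704885-75704913, minus strand): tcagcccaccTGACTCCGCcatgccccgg
Gclm (chr3:122245413-122245441, minus strand): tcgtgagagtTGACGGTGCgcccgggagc
Gsta3 (chr1:21240454-21240482, plus strand): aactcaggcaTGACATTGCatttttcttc
Mgst1 (chr6:138140461-138140489, minus strand): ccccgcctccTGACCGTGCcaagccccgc
Txnrd1 (chr10:82859104-82859132, minus strand): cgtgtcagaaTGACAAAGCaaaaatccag
Srxn1 (chr2:152105542-152105570, minus strand): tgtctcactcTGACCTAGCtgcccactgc
Prdx1 (chr4:116685456-116685484, minus strand): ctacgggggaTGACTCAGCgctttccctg
G6pdx (chrX:74428919-74428947, plus strand): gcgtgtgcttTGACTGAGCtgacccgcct
Pgd (chr4:149166061-149166089, minus strand): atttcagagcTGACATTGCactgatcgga
Me1 (chr9:86695902-86695930, minus strand): gatgccgccgTGACTCAGCgcttctcgcg
Sod1 (chr16:90220696-90220724, minus strand): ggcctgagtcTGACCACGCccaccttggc
Ugdh (chr5:65435918-65435946, plus strand): ccgaactgtaTGACCACGCcccttgagga
Ugdh (chr5:65435956-65435984, minus strand): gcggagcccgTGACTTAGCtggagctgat
In Prdx1 and Me1 the match also held the AP-1 letters TGANTCA, as 2 of the 13 matches. A match is a description of letters and no evidence of binding. A window without a match is no evidence that a gene lacks an element, since bases outside the windows were not searched. The 12 genes with the letters had a median log2 fold change of -0.03, knockout over wild type, with 5 above and 7 below 0. The 21 genes with a window but no match had a median of 0.05, with 14 above and 7 below 0. The whole Prdx1 window follows, since Prdx1 was the most abundant member, with its match in capitals on the opposite strand.
Prdx1 promoter (chr4:116685349-116685648, plus strand): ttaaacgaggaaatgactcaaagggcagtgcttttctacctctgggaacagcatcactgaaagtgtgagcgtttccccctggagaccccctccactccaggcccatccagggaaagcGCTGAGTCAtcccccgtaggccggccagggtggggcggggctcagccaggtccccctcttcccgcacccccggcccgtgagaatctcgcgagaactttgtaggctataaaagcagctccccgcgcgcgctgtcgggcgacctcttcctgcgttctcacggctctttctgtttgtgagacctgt

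The libraries held 72559141 to 74172804 counts in knockout and 68053008 to 79090732 counts in wild-type macrophages. Levels within a gene are given as CPM, counts relative to library sizes scaled by the trimmed mean of M values (TMM), and levels between genes as the deposited FPKM, which are scaled for gene length. Dclk1 was at 5.55, 5.89 and 5.15 CPM in knockout and 7.27, 6.70 and 7.43 CPM in wild-type libraries, a log2 fold change of -0.37 (edgeR adjusted p = 0.332). Dclk1 thus did not pass the test, and whether the deletion removes the counted exons is not stated, so it gives no firm check of the labels. Of 8 macrophage markers only Lyz2, the lysozyme gene, passed the test, at 7969.6 CPM in knockout and 16349 CPM in wild-type libraries on average. Of the other 7, Itgam and Fcgr1 had estimates above 0 and Cd68, Csf1r, Adgre1, Mertk and Cd14 below 0. Itgam, the CD11b integrin chain, averaged 513 ± 91.6 CPM in knockout and 327 ± 91.4 CPM in wild-type libraries, without overlap (edgeR adjusted p = 0.344), and Cd68 averaged 1993 and 1994 CPM. Summed over 8 macrophage markers the level was 12610.4 to 12756 CPM in knockout and 20381 to 21621 CPM in wild-type libraries, and without Lyz2 it was 4656 to 4752 and 4515.5 to 4703 CPM. Markers of other cells were low, with sums of 85.0 to 99.9 CPM in knockout against 106 to 113 CPM in wild-type libraries for 8 fibroblast and mesothelial genes. For 8 T and NK cell genes the sums were 6.69 to 7.48 CPM in knockout and 10.0 to 11.4 CPM in wild-type libraries. For B cell, mast cell, dendritic cell, neutrophil and eosinophil genes the highest sums were 6.40, 4.25, 14.2, 22.9 and 0.970 CPM in knockout and 5.06, 6.10, 16.9, 26.3 and 1.09 CPM in wild-type libraries, and 2 neutrophil markers were at 0 in every library. S100a8 gave 20.3 to 26.3 CPM of the neutrophil sums, and Ccr7 7.88 to 13.2 CPM of the dendritic cell sums. None of these other markers passed in edgeR. DESeq2, a second test, called Dcn, Cd3g and Trbc2 lower in knockout (adjusted p = 0.00099, 0.0309 and 0.0328), and 3.77% of all genes with an adjusted p. The part of these other cells in the results below was not tested, and in bulk RNA fewer cells of a type cannot be told apart from less RNA per cell.

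The macrophages of both genotypes held the antioxidant transcripts at nearly the same levels. None of the 36 genes passed the test (edgeR quasi-likelihood, Benjamini-Hochberg adjusted p under 0.05 over all 16239 genes tested), where 0.0677% of all genes passed, 0.0246% higher and 0.0431% lower in knockout. All 36 were tested. At an unadjusted p under 0.05 there were 12 members (33.3%), 6 higher and 6 lower in knockout, against 10.4% of all genes and 14.6% of genes of at least 10 CPM. The members were chosen with earlier results of these data known, so this is no independent comparison. Of the members 29 reached 50 CPM, a level at which the share over all genes was not taken. DESeq2 on the same genes called 0 members and 3.77% of the 12135 genes to which it gave an adjusted p. DESeq2 without the count filter, an alternative added after the data were seen, called 1 member, Txnrd1, and 3.44% of 12015 such genes. The median log2 fold change, knockout over wild type, was 0.0309 over the members and -0.0019 over all genes, with 22 members above and 14 below 0. The absolute log2 fold change was under 0.2 for 33 members.

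These differences were bounded closely for most members. The 95% interval of the fold lay within 1.5-fold in either direction for 34 of 36 genes. The exceptions were Mgst2, which was scarcely expressed, and Osgin1, which varied between libraries of a group. The median standard error of the log2 fold change was 0.0497 for members and 0.145 for all genes tested. The median absolute log2 fold change was 0.0834 for members, 0.132 for all genes tested and 0.0748 for genes of at least 10 CPM, a level that 34 members reached. The intervals cover the spread between 3 libraries a group and are not adjusted for the number of genes.

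**Figure D1:**
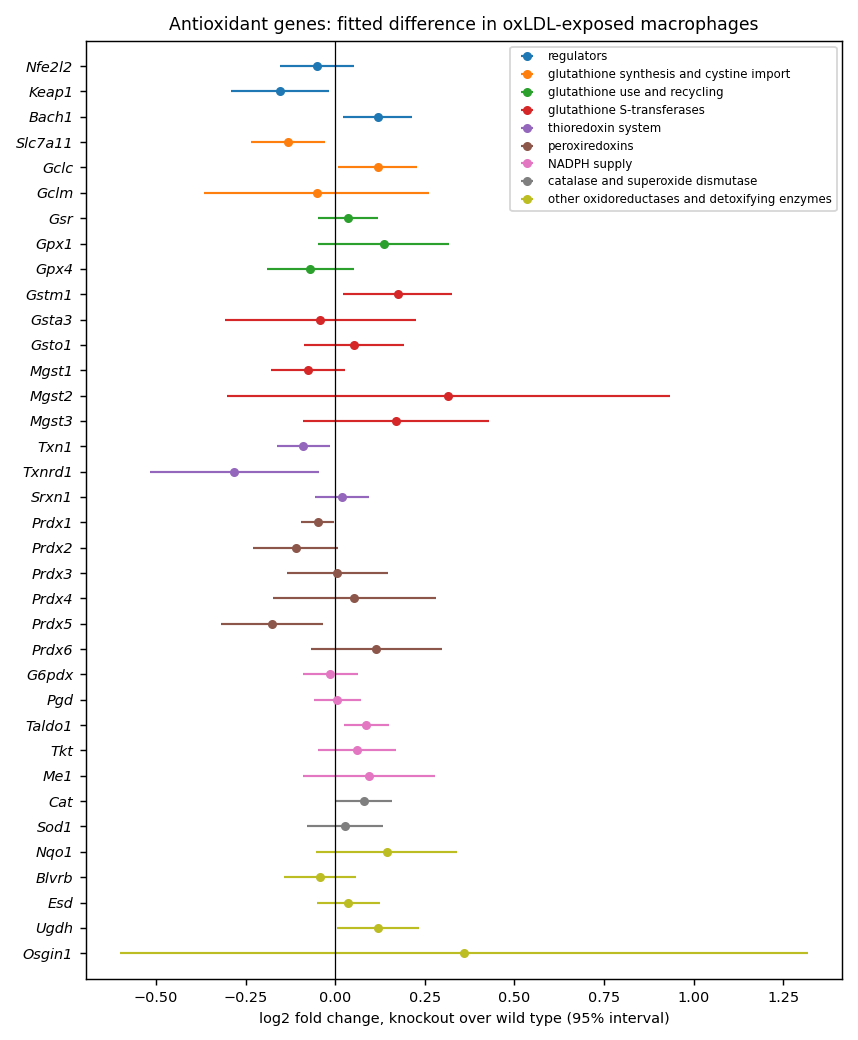
Log2 fold change, knockout over wild type, of the 36 antioxidant genes (x axis), in rows by role, with points for the edgeR estimate and bars for its 95% interval. Of the 36 estimates, 33 lie under 0.2 in absolute value, and the widest interval is that of Osgin1, -0.60 to 1.32.

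By deposited FPKM the programme spanned a wide range and was led by thiol peroxide enzymes. Prdx1, a cytosolic peroxiredoxin that reduces hydrogen peroxide, had the highest level, at 3323 FPKM in knockout and 3408 FPKM in wild-type libraries on average. Txn1, which encodes the thioredoxin that recharges it, followed at 667 and 703 FPKM, and Srxn1, whose product sulfiredoxin repairs overoxidised peroxiredoxin, at 636 and 622 FPKM. Next came Taldo1 at 389.6 and 364 FPKM, Gstm1 at 388 and 341 FPKM and Esd at 361 and 349 FPKM. At the low end Me1 averaged 4.60 and 4.27 FPKM, Gsta3 2.87 and 2.93 FPKM and Mgst2 0.397 and 0.314 FPKM in knockout and wild-type libraries. Together the 36 genes took 2.64% to 2.71% of all counts in knockout libraries and 2.69% to 2.70% in wild-type libraries. The 6 peroxiredoxins alone took 1.18% to 1.24% in knockout and 1.23% to 1.24% in wild-type libraries.

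**Figure D2:**
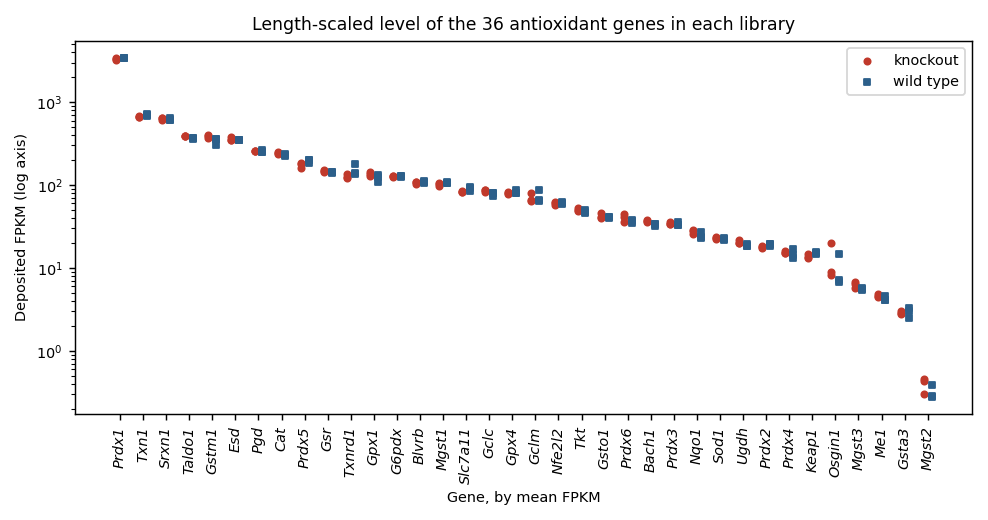
Deposited FPKM on a log axis of each antioxidant gene in each library (knockout circles left of wild-type squares), ordered by mean FPKM. Prdx1 stands highest, at 3323 FPKM in knockout and 3408 FPKM in wild type on average, and Mgst2 lowest, at 0.397 and 0.314 FPKM.

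The 3 regulators differed by small amounts between the genotypes, and in both directions. Nfe2l2 (ENSMUSG00000015839, chromosome 2, 75675513 to 75704641, minus strand, GRCm38) was at 252, 260.0 and 241 CPM in knockout and 252, 267 and 261 CPM in wild-type libraries. The groups overlapped, and the log2 fold change was -0.05 (95% interval -0.15 to 0.05, adjusted p = 0.766). Keap1, the sensor that restrains NRF2, was at 76.2, 69.8 and 68.1 CPM in knockout and 76.3, 80.4 and 81.6 CPM in wild-type libraries. Its highest knockout library lay just under its lowest wild-type library, and the fold was 0.899 (adjusted p = 0.414). Of its 50-base sequences 7.78% also occur in the antisense gene Gm16754. No source states whether reads were counted by strand, so reads of antisense partners cannot be told apart here. Bach1, the competing repressor, was at 249.8, 248 and 257 CPM in knockout and 236, 223 and 237 CPM in wild-type libraries. Each knockout value lay above each wild-type value, with a fold of 1.09 (adjusted p = 0.370).

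Cystine import and glutathione synthesis lay on both sides of no difference. Slc7a11, the cystine transporter subunit (chromosome 3, 49892526 to 50443614, minus strand), was at 1299, 1276 and 1285 CPM in knockout and 1432, 1312 and 1485 CPM in wild-type libraries. The knockout libraries lay close together and below all wild-type libraries, with a fold of 0.913 (log2 fold change -0.13, 95% interval -0.23 to -0.03, adjusted p = 0.356). Gclc, the catalytic subunit of glutamate-cysteine ligase, was at 360.4, 368 and 345 CPM in knockout and 311, 340.0 and 337 CPM in wild-type libraries. Here the knockout values lay above, with a fold of 1.09 (adjusted p = 0.433). Gclm, the modifier subunit of the same enzyme, was at 465, 561 and 452 CPM in knockout and 457, 456 and 619 CPM in wild-type libraries. One library in each group stood high, knockout replicate 2 and wild-type replicate 3, and the log2 fold change was -0.05 (95% interval -0.37 to 0.26, adjusted p = 0.930). Gclm overlaps the antisense gene Gm17494 by 296 exonic bases.

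The enzymes that use and recycle glutathione had overlapping groups. Gsr, glutathione reductase, averaged 452 ± 15.9 CPM in knockout and 441 ± 3.45 CPM in wild-type libraries (SD, n = 3 each). Gpx1, the cytosolic glutathione peroxidase, was at 207, 228 and 214 CPM in knockout and 176, 215 and 201 CPM in wild-type libraries, lowest in wild-type replicate 1. Gpx4, the selenoenzyme that reduces lipid hydroperoxides in membranes, averaged 153 ± 4.20 CPM in knockout and 161 ± 8.83 CPM in wild-type libraries. It shares 34.7% of its 50-base sequences with the pseudogene Gpx4-ps2, so its counts are uncertain.

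Among glutathione S-transferases Gstm1, of the mu class, was the most abundant, at 608, 639 and 653 CPM in knockout and 504, 595 and 584 CPM in wild-type libraries. All knockout values lay above all wild-type values, wild-type replicate 1 was the lowest library, and the fold was 1.13 (log2 fold change 0.17, 95% interval 0.02 to 0.33, adjusted p = 0.406). Without wild-type replicate 1 the log2 fold change was 0.10 in place of 0.17, and 18.9% of the gene's 50-base sequences occur in other transcripts. Mgst1, a microsomal transferase, was at 235, 232 and 216 CPM in knockout and 243, 238 and 239.8 CPM in wild-type libraries, a fold of 0.949. Mgst3 was at 7.02, 8.14 and 7.79 CPM in knockout and 6.53, 6.98 and 6.88 CPM in wild-type libraries, a fold of 1.13. Both sets of values were separated by group and neither gene passed (adjusted p = 0.616 and 0.658). Gsto1, Gsta3 and Mgst2 averaged 95.4, 13.9 and 1.67 CPM in knockout and 92.0, 14.3 and 1.34 CPM in wild-type libraries, with overlapping groups.

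In the thioredoxin system lay the largest downward estimate of the programme. Txnrd1 (ENSMUSG00000020250, chromosome 10, 82833951 to 82897712, plus strand) encodes the cytosolic selenoenzyme that reduces thioredoxin with NADPH. It was at 1054, 979 and 945 CPM in knockout and 1421, 1089 and 1110.5 CPM in wild-type libraries. Wild-type replicate 1 stood well above the rest, while the highest knockout library lay just under the lowest of the wild type. The fold was 0.823 (log2 fold change -0.28, SE 0.101, 95% interval -0.52 to -0.05), with edgeR adjusted p = 0.386. DESeq2 gave an adjusted p of 0.0787 on the filtered genes and 0.0455 without the count filter, and over all alternatives the adjusted p ranged from 0.0455 to 0.642. Without wild-type replicate 1 the log2 fold change was -0.15 (adjusted p = 0.472). Txn1 was at 792, 772 and 766 CPM in knockout and 825, 851 and 802 CPM in wild-type libraries, separate groups with a fold of 0.940 (adjusted p = 0.386). Srxn1 was at 2026, 1925 and 2014 CPM in knockout and 1911, 2038 and 1935 CPM in wild-type libraries, with the groups interleaved and a fold of 1.01 (95% interval 0.962 to 1.07).

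The peroxiredoxins, which reduce peroxides at a reactive cysteine in different compartments, kept within a narrow band. Prdx1 was at 11463, 11250.4 and 10917 CPM in knockout and 11442, 11751 and 11589 CPM in wild-type libraries. Knockout replicate 1 lay among the wild-type values, and the fold was 0.967 (95% interval 0.937 to 0.998, adjusted p = 0.440). Prdx5, found in mitochondria, peroxisomes and cytosol, was at 435, 423 and 379 CPM in knockout and 473, 440.0 and 484 CPM in wild-type libraries. The groups were separate, with a fold of 0.886 (95% interval 0.802 to 0.978, adjusted p = 0.370). Its exons overlap those of the opposite-strand gene Trmt112 by 409 bases. Prdx2, another cytosolic form, was at 62.4, 59.0 and 59.99 CPM in knockout and 66.6, 66.3 and 62.9 CPM in wild-type libraries, also separate, with a fold of 0.926 (adjusted p = 0.513). Prdx3 of mitochondria averaged 56.5 and 56.3 CPM, Prdx4 of the endoplasmic reticulum 36.2 and 34.9 CPM and Prdx6, which also acts on phospholipid peroxides, 214 and 198 CPM in knockout and wild-type libraries. The groups of these last 3 genes overlapped. Of the 50-base sequences of Prdx1 8.81% occur in other transcripts, and Prdx2 shares 177 exonic bases with the opposite-strand gene Rnaseh2a.

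The genes grouped here under NADPH supply, with Taldo1 and Tkt of the non-oxidative branch among them, differed by less than 0.2 on the log2 scale. G6pdx, which opens the pentose phosphate pathway, averaged 432 ± 9.60 CPM in knockout and 436 ± 7.08 CPM in wild-type libraries (SD, n = 3 each). Pgd, its second NADPH-making dehydrogenase, averaged 1835 ± 13.6 and 1827 ± 60.9 CPM, a fold with a 95% interval of 0.961 to 1.05. Taldo1, transaldolase of the non-oxidative branch, was at 943, 932 and 937 CPM in knockout and 862, 901 and 886 CPM in wild-type libraries. It had the smallest unadjusted p of the members (0.013), separate groups and a fold of 1.06 (95% interval 1.02 to 1.11, adjusted p = 0.312). Tkt, transketolase of the same branch, averaged 410.4 and 393 CPM and Me1, the cytosolic malic enzyme, 19.6 and 18.4 CPM in knockout and wild-type libraries. G6pdx shares 418 exonic bases with Ikbkg on the opposite strand, and 28.3% of the 50-base sequences of Me1 occur in other transcripts.

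Catalase and the remaining enzymes had small differences, mostly with higher knockout estimates. Cat, the peroxisomal catalase, was at 689, 706 and 718 CPM in knockout and 647, 688 and 663 CPM in wild-type libraries, separate groups with a fold of 1.06 (adjusted p = 0.466). Ugdh, which makes UDP-glucuronate, was at 151, 150.2 and 161 CPM in knockout and 137, 141 and 148 CPM in wild-type libraries, a fold of 1.09 with separate groups (adjusted p = 0.456). Nqo1, the quinone reductase often read as an NRF2 reporter, was at 47.5, 44.1 and 49.5 CPM in knockout and 39.2, 47.3 and 41.2 CPM in wild-type libraries. Its groups overlapped through wild-type replicate 2, and the log2 fold change was 0.14 (95% interval -0.05 to 0.34, adjusted p = 0.618). Sod1, the cytosolic superoxide dismutase, averaged 101 and 98.8 CPM, Blvrb, a flavin and biliverdin reductase, 329 and 339 CPM, and Esd, which splits S-formylglutathione, 1347 and 1313 CPM in knockout and wild-type libraries.

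Osgin1, an oxidative stress-induced gene, was the most variable member. It was at 58.5, 24.7 and 26.8 CPM in knockout and 20.2, 21.5 and 43.9 CPM in wild-type libraries. Knockout replicate 1 and wild-type replicate 3 stood high, the highest library was 2.89 times the lowest, and no transcript of another gene shared its 50-base sequences. The log2 fold change of 0.36 had a 95% interval of -0.60 to 1.32, and it was -0.15 without knockout replicate 1. Osgin1 and Gclm were both high in wild-type replicate 3, while in knockout they were high in different libraries.

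**Figure D3:**
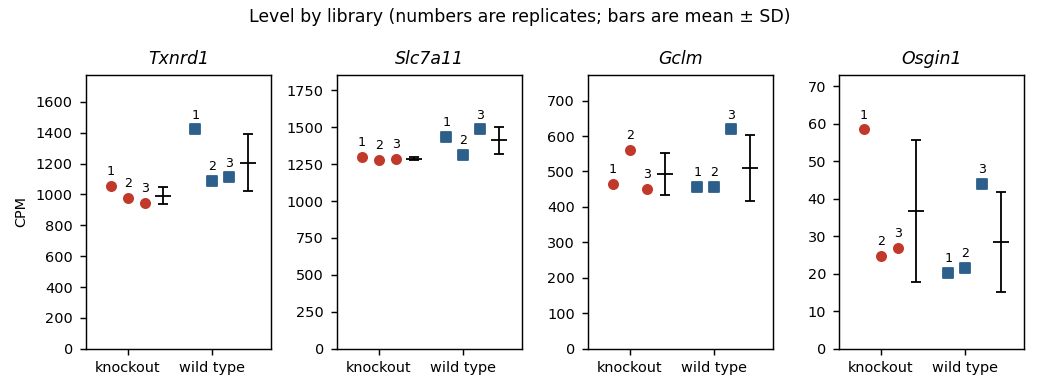
CPM of Txnrd1, Slc7a11, Gclm and Osgin1 in each library (knockout circles, wild-type squares, numbered by replicate), with mean and SD beside each group (n = 3). Txnrd1 is highest in wild-type replicate 1 at 1421 CPM, and Osgin1 is highest in knockout replicate 1 at 58.5 CPM.

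In 14 of the 36 genes (38.9%) the knockout and wild-type libraries did not overlap, against 17.6% of all genes tested and 21.9% of genes of at least 10 CPM. This too is no independent comparison, as the members were chosen with earlier results of these data known. Of the 14, 7 lay higher in knockout (Bach1, Gclc, Gstm1, Mgst3, Taldo1, Cat and Ugdh) and 7 lower (Keap1, Slc7a11, Mgst1, Txn1, Txnrd1, Prdx2 and Prdx5). For all genes the shares were 8.68% higher and 8.89% lower. On the FPKM values as the authors scaled them, 10 members did not overlap, against 18% of the same genes tested and 22.7% of those of at least 10 CPM. Keap1, Slc7a11, Mgst1 and Prdx5, all lower without overlap on CPM, overlapped on FPKM. The 7 higher genes stayed separate on FPKM, so the even split held on CPM only. Beside these counts stands the position of wild-type replicate 1, which lay farthest from the other libraries on the first principal component. It was the lowest library for 13 members and the highest for 4. Knockout replicate 3 was the lowest for 9 and the highest for 9. On that component all knockout libraries lay below 0 and all wild-type libraries above 0. Without wild-type replicate 1, and so with fewer libraries to overlap, 20 members did not, against 27.3% of all genes tested and 31.5% of those of at least 10 CPM. Its part in the separation was not otherwise tested.

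**Figure D4:**
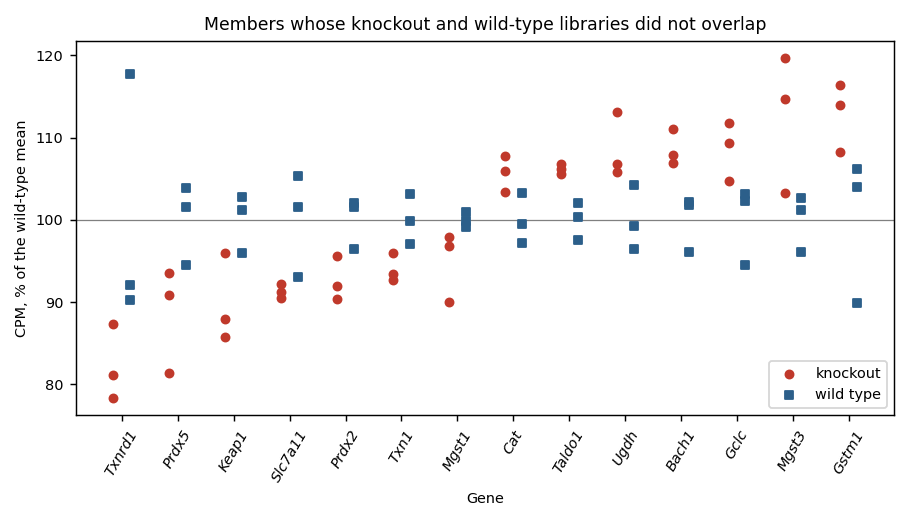
CPM as a percentage of the wild-type mean for the 14 genes whose knockout (circles) and wild-type (squares) libraries did not overlap, ordered by fold change. Of them, 7 lie lower and 7 higher in knockout, and wild-type replicate 1 is the high square of Txnrd1 and the low square of Gstm1.

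Of 135 further genes of the pathway, taken in 5 lists, 131 were listed and 118 tested, and none passed in edgeR. At an unadjusted p under 0.05 there were 23 (19.5%), 7 higher and 16 lower in knockout, against 10.4% of all genes and 14.6% of genes of at least 10 CPM. These lists were also chosen with earlier results of these data known. DESeq2 called 6 of the 105 to which it gave an adjusted p (5.71%, against 3.77% of all such genes), of which Akr1b8 and Ptgr1 were higher and Ptges, Txn2, Sod2 and Cybb lower. Among 13 genes that control or partner NRF2 the smallest p belonged to Nfe2l1, a related transcription factor, at 90.8 ± 8.55 CPM in knockout and 107 ± 1.87 CPM in wild-type libraries (adjusted p = 0.278). Maff, a small MAF partner, averaged 15.3 and 18.6 CPM (adjusted p = 0.310), and Sqstm1, the most abundant, whose product p62 binds KEAP1, 3687 and 3795 CPM. In 32 tested NRF2 targets outside the 36 the median log2 fold change was 0.06. Ptgr1, a prostaglandin and alkenal reductase, was at 939, 951 and 938 CPM in knockout and 828, 881 and 837 CPM in wild-type libraries, a fold of 1.11 with edgeR adjusted p = 0.131 and DESeq2 adjusted p = 0.0265. Akr1b8, an aldo-keto reductase, was at 81.2, 76.8 and 82.4 CPM in knockout and 62.7, 69.8 and 70.6 CPM in wild-type libraries, a fold of 1.18 with edgeR adjusted p = 0.210 and DESeq2 adjusted p = 0.0263. Ftl1, the ferritin light chain, averaged 17922 and 16835 CPM (edgeR adjusted p = 0.394).

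Among the tested glutathione genes outside the members, 22 estimates were under 0 and 11 over 0 (log2 median -0.03). The tested thioredoxin, superoxide and repair genes split evenly, 15 over and 15 under 0 (log2 median -0.0088). In that list 10 genes (33.3%) did not overlap, 3 higher and 7 lower in knockout, against 17.6% of all genes tested and 21.9% of genes of at least 10 CPM. At an unadjusted edgeR p under 0.05, 1 was higher and 4 lower (16.7%, against 10.4% of all genes and 14.6% of genes of at least 10 CPM). A shift of the list was not tested. Of 33 tested glutathione genes, Ptges, a glutathione-dependent prostaglandin E synthase, was at 65.3, 59.3 and 54.0 CPM in knockout and 90.4, 75.4 and 85.9 CPM in wild-type libraries. The groups were well apart, with a fold of 0.709, edgeR adjusted p = 0.110 and DESeq2 adjusted p = 4.1e-05. Glrx5, a mitochondrial glutaredoxin, averaged 12.2 and 15.2 CPM (edgeR adjusted p = 0.337), and Slc3a2, the heavy chain that partners SLC7A11, 797 and 848 CPM. Among 30 tested thioredoxin, superoxide and repair genes, mitochondrial Sod2 was at 444, 436 and 414 CPM in knockout and 548, 488 and 497 CPM in wild-type libraries. Its fold was 0.845 with edgeR adjusted p = 0.149 and DESeq2 adjusted p = 0.0049. Mitochondrial thioredoxin, Txn2, was at 29.7, 43.9 and 43.3 CPM in knockout and 64.6, 49.3 and 74.7 CPM in wild-type libraries, a fold of 0.619 with wide spread in both groups (edgeR adjusted p = 0.252, DESeq2 adjusted p = 0.0020). Msrb1, a methionine sulfoxide reductase, averaged 243 and 227 CPM.

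The phagocyte NADPH oxidase, which makes superoxide from the NADPH that these enzymes also draw on, had 8 of 10 tested genes with estimates below 0 and a median log2 fold change of -0.10. Cybb, its catalytic subunit, was at 3079, 2945 and 2805 CPM in knockout and 3834, 3245 and 3517 CPM in wild-type libraries, separate groups with a fold of 0.833 (edgeR adjusted p = 0.169, DESeq2 adjusted p = 0.0080). Rac2, its GTPase, averaged 174 ± 1.95 CPM in knockout and 196 ± 10.1 CPM in wild-type libraries (edgeR adjusted p = 0.256). Cyba, its membrane partner, averaged 1121 and 1192 CPM (edgeR adjusted p = 0.405). Rac1, another GTPase of the oxidase, was among the 8, with 82.7 CPM in knockout replicate 2 against 262 and 268 CPM in replicates 1 and 3. Its wild-type libraries were at 272, 276 and 266 CPM, and its groups overlapped. In 5 of the 10 genes (50%) the groups did not overlap, all lower in knockout. No direction was set in advance. In either direction, 17.6% of all genes tested and 21.9% of genes of at least 10 CPM did not overlap, and 8.89% of all genes were lower without overlap.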

How the data were processed

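Libraries were made from poly(A) RNA and sequenced as read pairs on an Illumina NovaSeq, per the labels' protocols. The submitters' processing notes name HISAT2 2.0. For the counting tool, annotation, build and use of strand, nothing was given in the sources used here. Each gene and library has a raw count and an FPKM value, per the file headers, and the authors scaled FPKM for gene length and library size. Another 12 per-sample columns, which carry no name of these 6 samples, were left out. GENCODE M21 lists 27169 of the 27240 IDs, 24511 of them with identical coordinates and strand, so coordinates are as deposited and taken as GRCm38.

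The genotype label set each sample's group. Counts were filtered by filterByExpr (16239 genes), scaled by TMM and tested two-sided by edgeR 4.0.16 quasi-likelihood fits (R 4.3.3) with genotype as the only term, adjusted by Benjamini-Hochberg over all genes tested and called at 0.05. Fold changes are knockout over wild type, and 95% intervals follow from the quasi-likelihood F. The fit was tested on simulated counts with 200 genes changed. Alternatives used DESeq2 1.42.0, limma 3.58.1 on log2(FPKM + 1) and log2(FPKM + 0.1) with a minimum FPKM of 1 in 3 or more libraries or no filter, no count filter, RLE size factors, a replicate block and leaving out each library. Within groups, the chi-square between 2 libraries was 36.7 to 42.8 times its degrees of freedom, so none was counted as a duplicate.

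Shared sequence was sought as 50-base runs common to GENCODE M21 transcripts. The members and lists were chosen with earlier results of these data known. Values by library are given for members whose groups do not overlap, for those called in any alternative and for Nfe2l2, Keap1, Nqo1, Gclm, Txnrd1 and Slc7a11. Prdx1, Srxn1, Osgin1 and Gpx1 were given by library after their values were seen. Each further list gave its genes past the threshold or, if none passed, the 2 of smallest p and the most abundant by FPKM. Genes called by DESeq2 and Hmox1, Rac1, Gsk3b, Fth1, Lrp8 and the markers Itgam, S100a8 and Ccr7 were named after their values were seen.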

Additional observations from a re-analysis of the deposited data

How the results depend on the processing

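No member passed in edgeR or limma under any alternative, nor in DESeq2 on the filtered genes. DESeq2 without the count filter, chosen after the data were seen, called 1 member, Txnrd1, 8 genes of the further lists and 413 genes in all, and on the filtered genes it called 6 and 457. Over all genes edgeR called 11, against 7 without a filter and 3 with the replicate block, and limma with no FPKM filter called 3. Leaving out 1 library gave 7 to 35 calls, from 7 without wild-type replicate 1 to 35 without knockout replicate 1, and 24 without wild-type replicate 2. The further lists gave 0 to 1 calls in those fits, the 1 being Gsk3b without knockout replicate 3. In them the members' median log2 fold change lay between 0.0077, without knockout replicate 1, and 0.0363, and the count without overlap between 14 and 20, the highest without wild-type replicate 1; the cause was not tested. Under the other alternatives the median reached 0.0416, in limma with no FPKM filter, and the count without overlap was 10 on FPKM and 13 among genes of at least 10 CPM.

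In 25 members the direction held in all 14 alternatives, and Mgst2 kept it in the 12 that gave it a value, its FPKM being too low for the filtered limma fits. In 10 it turned in at least 1 fit that left out a library, with log2 fold changes from -0.15 to 0.81 for Osgin1, -0.16 to 0.11 for Gclm, -0.145 to 0.0496 for Gsta3, -0.0226 to 0.16 for Prdx4, -0.0279 to 0.0503 for Prdx3, -0.0086 to 0.0905 for Gsto1, -0.0107 to 0.0586 for Esd, -0.00076 to 0.0471 for Sod1, -0.0266 to 0.00445 for G6pdx and -0.0080 to 0.0344 for Pgd. Whether the replicate numbers pair the samples is not stated in the sources used here. Deviations of same-numbered libraries from their group means correlated at 0.0488, 0.0265 and 0.0173. With means of only 3 libraries, such values cannot exclude a pairing, and none was used in the main fit. The replicate block called 0 members. At these depths 1 count equalled 0.0127 to 0.0147 CPM. The part of counting error in the spread between 3 libraries was not tested, and counts differed widely between members. Mgst2 had 79 to 141 counts a library and Mgst3 444 to 595, where counting error need not be small. The spread between 3 libraries limits the precision.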

Other observations

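Hmox1, an NRF2 target whose product degrades heme, was abundant in both groups. It was at 8949, 9130.0 and 8808 CPM in knockout and 8298, 9102 and 8512 CPM in wild-type libraries, with overlapping groups and edgeR adjusted p = 0.640.

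A few genes varied widely between libraries. Of 78 members and further genes with at least 50 CPM on average, 7 (8.97%) had a highest library at least 1.5 times the lowest, against 8.73% of all 3678 genes of that level. Rac1, a GTPase of the NADPH oxidase, was at 262, 82.7 and 268 CPM in knockout and 272, 276 and 266 CPM in wild-type libraries, so that knockout replicate 2 alone stood low. Gsk3b, a kinase that can mark NRF2 for degradation, was at 69.4, 69.4 and 169 CPM in knockout and 169, 156 and 163 CPM in wild-type libraries. Fth1, the ferritin heavy chain, was at 10504, 16763 and 10941 CPM in knockout and 10936, 17734 and 16358 CPM in wild-type libraries, with 3 libraries near each level. In these 3 genes and in Lrp8 the genotypes overlapped. In the other 3 of the 7, Txn2, Ptges and the member Txnrd1, all knockout libraries lay below all wild-type libraries.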
